A study of Arabidopsis thaliana with 28 samples.

Results

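BAM8-Cat_Ox is a line of Arabidopsis thaliana, named in its label as an overexpression (Ox) form of BAM8 with the suffix Cat, and it was compared here with wildtype plants of the same accession, Col-0. The comparison was chosen by the genotype in the labels and holds 4 of the 28 arrays of the series, 2 of BAM8-Cat_Ox and 2 of wildtype. BAM8 and the related BAM7 are nuclear proteins that join a DNA-binding domain of the BZR1 type to a domain that resembles beta-amylase, the enzyme that releases maltose from starch. BZR1-type domains are known from transcription factors of brassinosteroid signalling, and BAM7 and BAM8 are known as regulators of gene expression and shoot growth. The series asks what the enzyme-like domain does when these proteins find DNA sequences and activate transcription. What the suffix Cat changes in BAM8 is not given in the sources used here, nor are the promoter that drives it, the state of the plant's own BAM8 gene or the number of independent transformants.

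All groups were untreated shoots of 3-week-old plants, grown at 20 °C with a light period of 12 h and harvested 4 h after the light came on, and each array carried a pool of 14 plants. Besides BAM8-Cat_Ox and wildtype, the groups used here were BAM8_Ox, the BAM8 line without a suffix; BAM8-Lig_Ox, BAM8-DNA_Ox and BAM8-N_Ox, whose suffixes are not defined in the sources used here either; BAM7-Cat_Ox and BAM7_Ox; and the mutant bam8. The other 5 groups of the series, BAM7-Lig_Ox, BAM7-DNA_Ox, BAM7-N_Ox, bam7 and bam7 bam8, entered the spread and the levels by group. Every group held 2 arrays labelled as biological replicates. Levels are deposited intensity values on a linear scale, and differences are on the log2 scale. The array medians were 24.1 and 23.5 units in BAM8-Cat_Ox, against 24.1 and 24.0 units in wildtype, and replicates differed by over 2-fold at 59 probe sets in BAM8-Cat_Ox and at 50 in wildtype. Neither the values nor the reference used here pairs a probe set with a gene, so probe sets keep their IDs. The level of BAM8 itself, and with it the overexpression named in the label, was not checked, nor were the organ markers of the shoot.

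Among the probe sets called between BAM8-Cat_Ox and wildtype, more were higher than lower in BAM8-Cat_Ox, a balance that turned without wildtype replicate 2. At an adjusted p under 0.05 (limma with 1 mean per group and the spread pooled over all 14 groups, Benjamini-Hochberg over all probe sets), 135 of 22746 probe sets were called, which is 0.594% of those tested. Of these, 96 (0.422%) were higher and 39 (0.171%) lower in BAM8-Cat_Ox, and without adjustment 2194 probe sets had a p under 0.05. The higher ones had a median difference of 0.80 and the lower ones of -0.71, beside -0.03 over all probe sets. A difference of 2-fold or more was found for 35 of the higher and 11 of the lower ones, and 6 and 2 of them differed by 2 or more on the log2 scale. Most called differences were moderate: 56 of the 96 higher and 23 of the 39 lower ones lay between 0.5 and 1 on the log2 scale. Both BAM8-Cat_Ox arrays lay outside both wildtype arrays at all 135 called probe sets. Over all probe sets, called or not, both lay above at 12.6% and below at 24.1%.

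**Figure D1:**
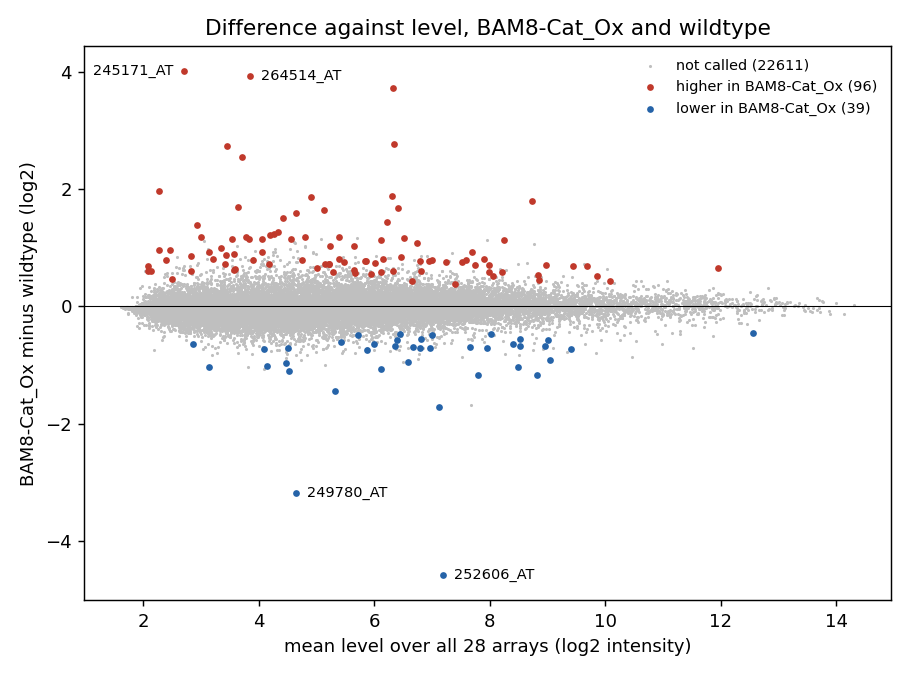
Each point is 1 probe set, with its mean level over all 28 arrays (log2 intensity) on the x axis and BAM8-Cat_Ox minus wildtype (log2) on the y axis. The 96 red points were called higher and the 39 blue points called lower in BAM8-Cat_Ox; the labels mark the 2 largest differences in each direction, 4.02 and 3.93 on the upper side and -4.58 and -3.19 on the lower side.

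The size of this list moved with single arrays, and the cause was not tested. It was 383 without BAM8-Cat_Ox replicate 1, 73 without BAM8-Cat_Ox replicate 2, 65 without wildtype replicate 1 and 298 without wildtype replicate 2. Without wildtype replicate 2, 134 probe sets were higher and 164 lower. When only the 4 arrays of the comparison were fitted, which leaves 2 residual degrees of freedom, 4 probe sets were called higher and 2 lower. Of the 135 probe sets, 23 higher and 7 lower ones were called in all 4 fits that each left out 1 array of the comparison. Their differences from wildtype ran from 0.66 to 4.02 for the higher and from -1.04 to -4.58 for the lower ones.

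Probe set 245171_AT had the largest rise in BAM8-Cat_Ox. Its intensity was 75.01 and 75.16 units on the BAM8-Cat_Ox arrays, against 4.68 and 4.60 units on the wildtype arrays. The other arrays with a high level were those of BAM8_Ox, at 42.06 and 36.55 units, whereas the 24 arrays of the remaining 12 groups, wildtype included, lay between 4.35 and 6.87 units. The BAM8-Cat_Ox level stood 4.02 above wildtype on the log2 scale (SE 0.12, limma adjusted p 2.36e-13). Both wildtype arrays lay under the 25th percentile of their own array, so the wildtype level may be background and the difference a lower bound. Against BAM8_Ox, 245171_AT was also higher, by 0.94 (95% interval 0.68 to 1.19, limma adjusted p 0.00309). In BAM8-Cat_Ox it was called higher than in each of the 13 other groups.

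Probe set 264514_AT had the next largest rise. It gave 114.2 and 129.7 units in BAM8-Cat_Ox, against 8.90 and 7.13 units in wildtype, a difference of 3.93 (SE 0.30, limma adjusted p 4.6e-07). Its high levels were spread over more lines than those of 245171_AT, with 59.28 and 53.40 units in BAM8_Ox, 74.00 and 83.65 units in BAM8-N_Ox and 25.52 and 36.08 units in BAM7-N_Ox. The difference from BAM8_Ox was 1.11 (95% interval 0.48 to 1.75, adjusted p 0.281) and that from BAM8-N_Ox 0.63 (95% interval -0.004 to 1.26, adjusted p 0.334), neither of which passed the threshold. The other 11 direct comparisons of BAM8-Cat_Ox with single groups, wildtype included, were called higher. Wildtype replicate 2 lay under the 25th percentile of its array, so this difference may be a lower bound too.

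Probe set 252606_AT had the largest fall, and it was low in BAM8-Cat_Ox alone. It gave 8.76 and 7.59 units in BAM8-Cat_Ox, against 201.0 and 190.1 units in wildtype, while the 26 arrays outside BAM8-Cat_Ox lay between 142.4 and 224.4 units. The fall against wildtype was -4.58 (SE 0.12, limma adjusted p 4.34e-14), which is 24.0-fold. The BAM8 line without a suffix, BAM8_Ox, had 221.8 and 187.0 units, and the BAM7 line with the same suffix, BAM7-Cat_Ox, had 194.8 and 207.2 units. BAM8-Cat_Ox was called lower than each of the 13 other groups at 252606_AT, by 4.23 to 4.74 on the log2 scale in size. One BAM8-Cat_Ox array, replicate 2, lay under its own 25th percentile, so the size may be understated.

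Probe set 249780_AT fell as well, but in company with the other BAM8 lines. It gave 4.98 and 5.85 units in BAM8-Cat_Ox, against 54.91 and 44.09 units in wildtype, a difference of -3.19 (SE 0.22, limma adjusted p 2.13e-07). The level in bam8 was 5.17 and 4.85 units, that in BAM8_Ox 4.50 and 5.77 units, that in BAM8-Lig_Ox 5.30 and 4.96 units, that in BAM8-DNA_Ox 5.86 and 4.16 units and that in BAM8-N_Ox 5.12 and 8.58 units. All groups named for BAM8 alone thus shared the low level, whereas bam7 bam8, at 107.1 and 71.60 units, did not. The difference of BAM8-Cat_Ox from bam8 was 0.11 (95% interval -0.36 to 0.58) and that from BAM8_Ox 0.08 (95% interval -0.39 to 0.55). Neither passed the threshold (limma adjusted p of 1 for both). Both BAM8-Cat_Ox arrays lay under the 25th percentile of their array, so the fall from wildtype may be a lower bound.

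**Figure D2:**
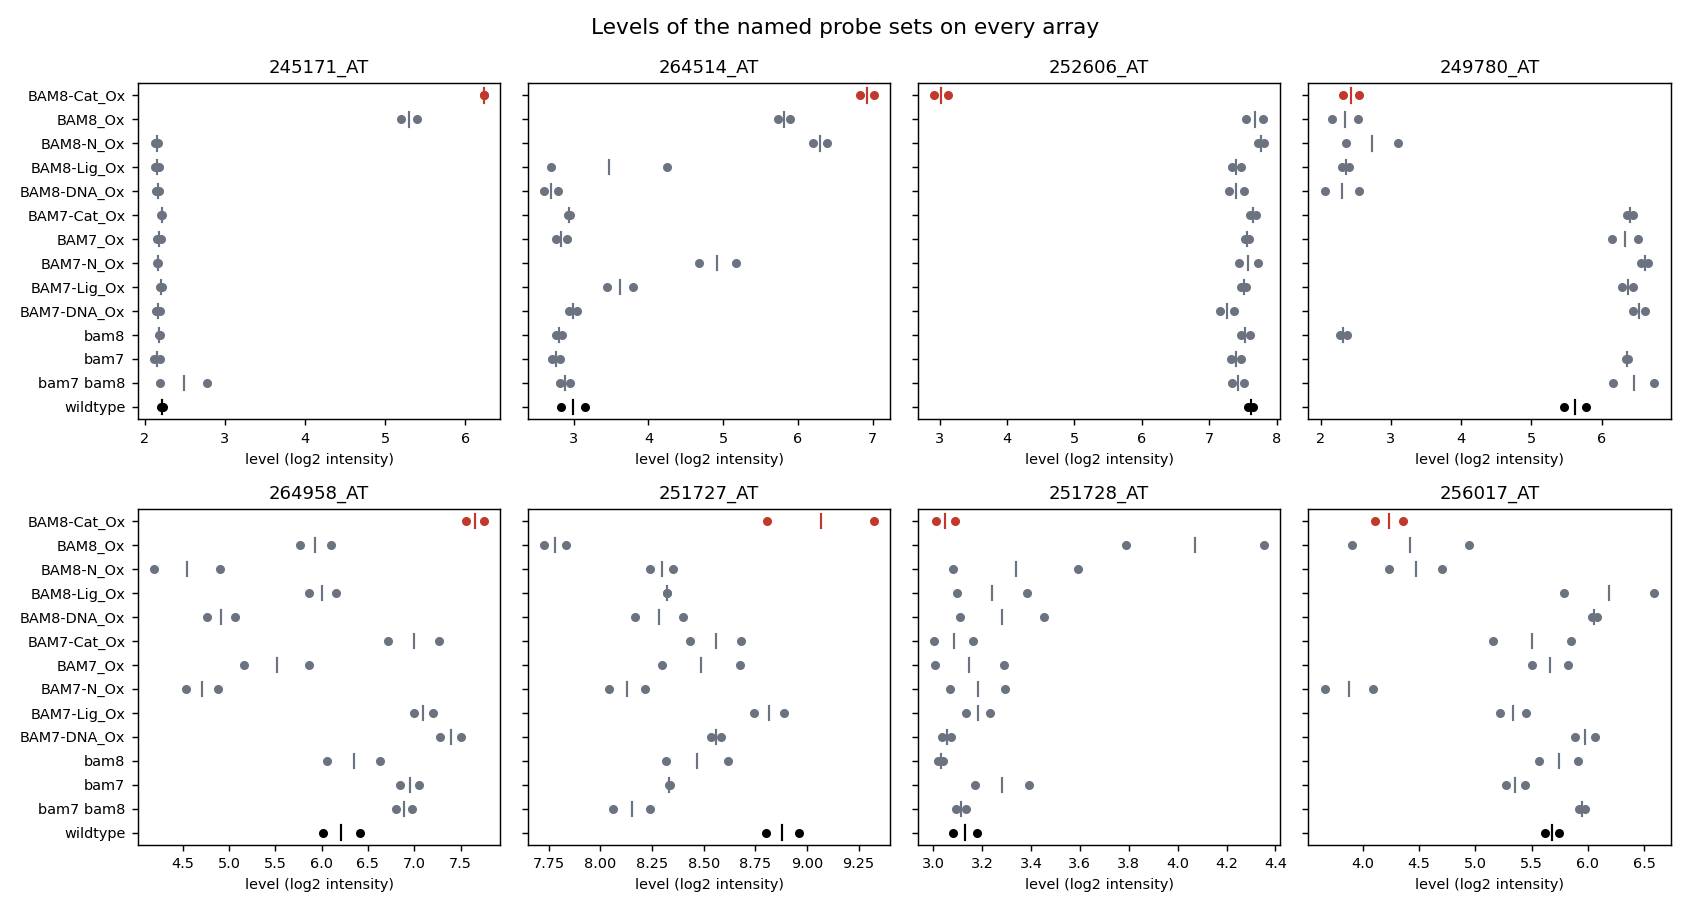
The level (log2 intensity, x axis) of 8 probe sets is shown on every array, with groups down the page, 1 point per array and a bar at the group mean of 2 arrays. BAM8-Cat_Ox is red and wildtype black; 245171_AT is high in BAM8-Cat_Ox and BAM8_Ox, 252606_AT is low in BAM8-Cat_Ox, and 249780_AT is low in bam8 and in all 5 BAM8 lines.

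Low levels touched a part of the list. Of the 96 higher probe sets, 12 had both wildtype arrays under the 25th percentile of their array and 15 had at least 1. Of the 39 lower ones, 2 had both BAM8-Cat_Ox arrays under it and 4 had at least 1. For most of the called probe sets the lower side of the difference was thus above that percentile.

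The levels of the called probe sets were then read in all groups. For the 96 higher ones the median log2 level was 6.14 and 6.21 on the BAM8-Cat_Ox arrays, against 5.11 and 5.09 on the wildtype arrays, values which the calls themselves set. Among the groups outside the comparison, which entered the choice only through the pooled spread, BAM8_Ox came next, with 5.86 and 5.75. BAM8-N_Ox followed with 5.60 and 5.62. The BAM7 lines BAM7-Lig_Ox, with 5.44 and 5.46, and BAM7-N_Ox, with 5.29 and 5.42, came after these. BAM8-Lig_Ox, with 5.22 and 5.21, and BAM8-DNA_Ox, with 5.11 and 5.15, lay near bam8, with 5.17 and 5.12. The double mutant bam7 bam8, at 5.09 and 5.05, lay at or below wildtype. BAM7-Cat_Ox, with 5.28 and 5.33, and BAM7_Ox, with 5.32 and 5.30, overlapped each other.

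The 39 lower probe sets ran the other way. Their median log2 level was 6.21 and 6.04 in BAM8-Cat_Ox, against 6.88 and 6.87 in wildtype. Outside the 2 groups compared, BAM8-N_Ox had the lowest medians, 6.28 and 6.33. BAM8_Ox, at 6.52 and 6.48, and BAM7-N_Ox, at 6.55 and 6.40, lay next to each other. BAM8-Lig_Ox, at 6.92 and 6.89, BAM8-DNA_Ox, at 7.04 and 7.12, and bam8, at 7.09 and 7.03, were all above both wildtype arrays. The median over all probe sets moved little, between 4.55 and 4.69 on the 28 arrays. These medians describe the lists and carry no test.

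**Figure D3:**
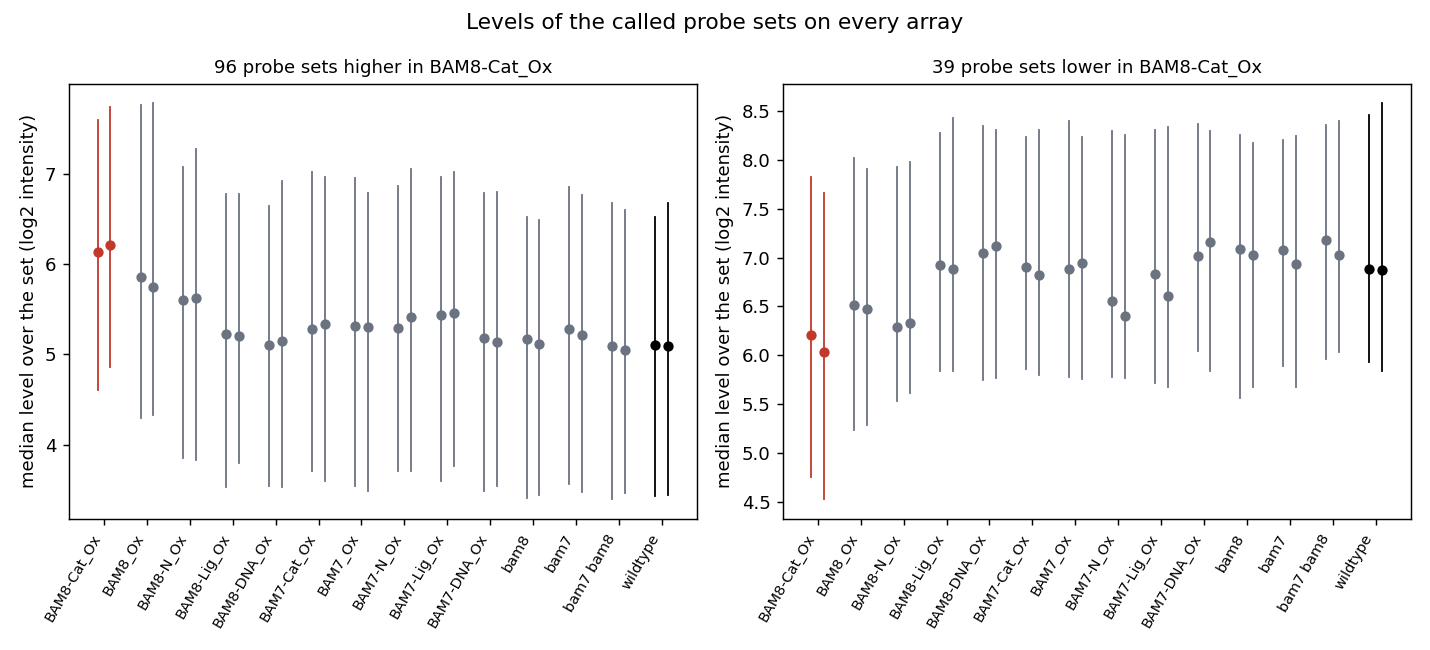
Each point is the median level (log2 intensity, y axis) on 1 array over the 96 probe sets called higher (left) or the 39 called lower (right) in BAM8-Cat_Ox than in wildtype, and each line spans the quartiles over the set. The sets were chosen by the difference between the red BAM8-Cat_Ox and black wildtype arrays, with the spread pooled over all groups. Of the other arrays, both of BAM8_Ox lie above 5.7 on the left. The BAM8-N_Ox, BAM8_Ox and BAM7-N_Ox arrays lie below 6.6 on the right.

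To follow the list outside the 2 groups compared, the 135 probe sets were looked up in comparisons without any BAM8-Cat_Ox or wildtype array. The arrays of these comparisons still entered the pooled spread by which the list was called. A probe set with a small pooled spread is called more easily in both, so the called shares are not independent of the choice. The probe sets higher in BAM8-Cat_Ox were often higher in BAM8_Ox, too, when BAM8_Ox was set against another line. Against BAM8-Lig_Ox, 37 of the 96 (38.5%) were called higher in BAM8_Ox, where 0.431% of all probe sets were (0.813% in either direction), and 85 of the 96 had a positive difference, beside 56.1% of all probe sets. Against BAM8-DNA_Ox, 35 (36.5%) were called higher, beside 0.492% of all (0.73% in either direction), and 90 were positive, beside 58.0% of all. Against bam8, 43 (44.8%) were called higher, beside 0.572% of all (0.831% in either direction), and 86 were positive, beside 56.3% of all. None of the 96 was called lower in these comparisons, and the medians of the 96 were 0.48, 0.54 and 0.59, beside medians over all probe sets of 0.03, 0.04 and 0.01. The counts of the 96 called higher fell in every fit without 1 array of the groups compared. The shares over all probe sets in those fits were not computed.

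The 39 lower probe sets showed the mirror of this in part and in smaller counts. With BAM8_Ox set against BAM8-Lig_Ox, BAM8-DNA_Ox and bam8, 32, 30 and 29 of them had a negative difference. Over all probe sets 43.9%, 42% and 43.7% did. The 2 largest falls were not called in any of the 3, with differences of 0.27, 0.27 and 0.13 for 252606_AT and of -0.01, 0.05 and 0.03 for 249780_AT. Against BAM8-Lig_Ox, 13 of the 39 (33.3%) were called lower in BAM8_Ox, beside 0.382% of all, with a median of -0.20. Against BAM8-DNA_Ox, 14 (35.9%) were called lower, beside 0.237% of all, with a median of -0.39. Against bam8, 11 (28.2%) were called lower, beside 0.259% of all, with a median of -0.29, and none of the 39 was called higher in any of these comparisons. These counts of lower calls fell without BAM8_Ox replicate 2 and without either array of BAM8-Lig_Ox, BAM8-DNA_Ox or bam8. The shares over all probe sets in those fits were not computed, so whether the 39 moved apart from them was not tested. The 3 comparisons share the BAM8_Ox arrays, so their counts are not independent of each other, and the spread of each probe set comes from the same fit as its call against wildtype.

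The list was also looked up between the BAM7 line with the suffix Cat and the BAM7 line without one, a comparison in which any level that both BAM7 lines share cancels. Both lines had medians for the 96 above the wildtype arrays, as given with the levels by group. Wildtype was the low side by which the 96 were called, and the mutant bam7, at 5.28 and 5.22, bam8 and BAM8-Lig_Ox also lay above it. In BAM7-Cat_Ox minus BAM7_Ox, 2 of the 96 (2.08%) were called higher, beside 0.558% of all probe sets, and 2 were called lower, beside 1.04% (1.6% in either direction). Of the 39, 1 was called lower and 0 higher by limma in that comparison, in which 5327 probe sets had a p under 0.05 without adjustment. The medians were 0.02 for the 96 and -0.04 for the 39, beside 0.07 over all probe sets. Replicates of BAM7-Cat_Ox differed by over 2-fold at 254 probe sets, the highest number of the 14 groups. The counts of the 96 called higher and of the 39 called lower moved when single arrays of these lines were left out. The shares over all probe sets in those fits were not computed, so whether the list moved apart from them was not tested.

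**Figure D4:**
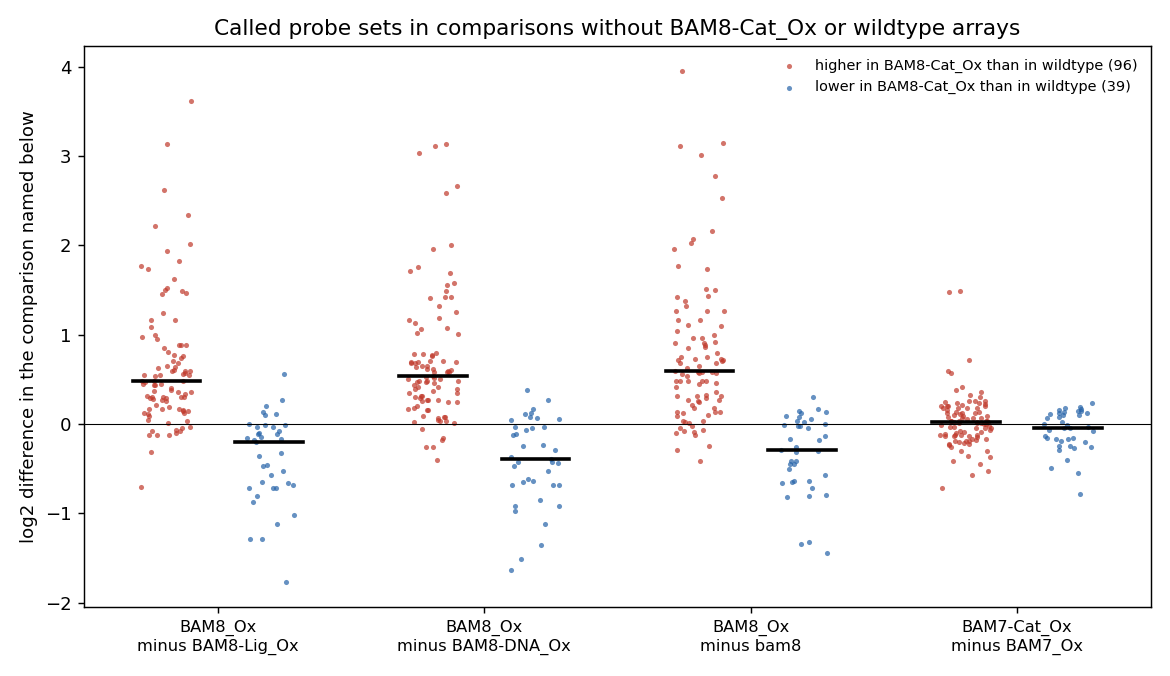
Each point is 1 of the 135 probe sets, with its log2 difference (y axis) in 4 comparisons that use no BAM8-Cat_Ox or wildtype array; the 96 higher ones are red, the 39 lower ones blue, and bars are medians. Red medians lie at 0.48, 0.54 and 0.59 where BAM8_Ox is set against BAM8-Lig_Ox, BAM8-DNA_Ox and bam8, and at 0.02 in BAM7-Cat_Ox minus BAM7_Ox.

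The lists made without 1 array of the comparison were followed in the same way. Over all probe sets, 0.431%, 0.492% and 0.572% were called higher in BAM8_Ox than in BAM8-Lig_Ox, BAM8-DNA_Ox and bam8. The shares called lower were 0.382%, 0.237% and 0.259%. Being called in every fit with a pooled spread favours probe sets with a large difference or a small spread. Between 12.6% and 63.2% of the higher probe sets of the 4 lists were called higher in BAM8_Ox than in BAM8-Lig_Ox, and between 6.71% and 31.6% of the lower ones called lower. The longest list of higher probe sets, the 254 found without BAM8-Cat_Ox replicate 1, gave the lowest of these shares for the higher ones. Of the 23 higher probe sets called in all 4 fits, 18 were called higher in BAM8_Ox than in BAM8-Lig_Ox, 18 than in BAM8-DNA_Ox and 19 than in bam8. Of the 7 lower ones, 4, 3 and 3 were called lower in BAM8_Ox than in these 3 groups.

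A direct comparison with BAM8_Ox asked where the suffix goes with a difference from the BAM8 line without one. BAM8-Cat_Ox and BAM8_Ox differed at 24 probe sets (0.106% of those tested), 18 of them higher (0.0791%) and 6 lower (0.0264%) in BAM8-Cat_Ox, and 1530 had a p under 0.05 without adjustment. Probe set 264958_AT gave 189.1 and 215.5 units in BAM8-Cat_Ox, against 68.75 and 54.26 units in BAM8_Ox, and was higher by 1.72 (SE 0.27, limma adjusted p 0.0137). Both BAM8-Cat_Ox arrays exceeded every other array of the series at 264958_AT, the closest being BAM7-DNA_Ox replicate 1 at 181.9 units. The difference from BAM7-DNA_Ox was 0.26 (95% interval -0.30 to 0.83, adjusted p 0.959). Of the 13 direct comparisons with single groups, 8 were called higher. Those with bam7, bam7 bam8, BAM7-Cat_Ox and BAM7-Lig_Ox were not called either. Against wildtype, with 85.06 and 64.68 units, BAM8-Cat_Ox was higher at 264958_AT by 1.44 (SE 0.27, adjusted p 0.0142). Between the BAM7 lines, BAM7-Cat_Ox was also called higher than BAM7_Ox at 264958_AT, by 1.48 (SE 0.27, limma adjusted p 0.0107).

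At 251727_AT both BAM8_Ox arrays were the lowest of the 28 arrays, the next lying at 263.9 units. The probe set gave 447.8 and 640.8 units in BAM8-Cat_Ox, against 228.1 and 212.3 units in BAM8_Ox, a difference of 1.28 (SE 0.16, limma adjusted p 0.00209). Wildtype had 498.6 and 445.5 units, within the range of BAM8-Cat_Ox except that replicate 2 lay just under it, and BAM8-Cat_Ox minus wildtype was 0.18 (95% interval -0.14 to 0.51, adjusted p 0.773). BAM8_Ox minus wildtype was -1.10 (SE 0.16, adjusted p 0.00114). At 251728_AT both BAM8_Ox arrays were the highest of the 28, all others outside BAM8-Cat_Ox reaching at most 12.07 units, with 8.06 and 8.51 units in BAM8-Cat_Ox, against 13.81 and 20.44 units in BAM8_Ox, a difference of -1.02 (SE 0.18, adjusted p 0.025). Wildtype had 9.05 and 8.47 units there, close to BAM8-Cat_Ox.

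Among the 6 lower probe sets of that direct comparison, 252606_AT had by far the largest difference, -4.64 (SE 0.12, limma adjusted p 3.47e-14). The calls of 264958_AT and 251728_AT were lost without BAM8-Cat_Ox replicate 2 (adjusted p 0.101 and 0.122) and without BAM8_Ox replicate 2 (0.134 and 0.273), and that of 251727_AT without BAM8_Ox replicate 2 (0.0518). The count of 24 was 240 without BAM8-Cat_Ox replicate 1, 88 without BAM8_Ox replicate 1, where 24 were higher and 64 lower, and 1 without BAM8_Ox replicate 2. It was 0 when only these 4 arrays were fitted.

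The comparison with BAM8-Lig_Ox set 2 suffixed BAM8 lines against each other. BAM8-Cat_Ox differed from BAM8-Lig_Ox at 170 probe sets (0.747% of those tested), 114 higher (0.501%) and 56 lower (0.246%), and 38 and 12 of these by 2-fold or more. Probe set 245171_AT gave 75.01 and 75.16 units in BAM8-Cat_Ox, against 4.38 and 4.51 units in BAM8-Lig_Ox, a difference of 4.08 (SE 0.12, limma adjusted p 1.81e-13). Probe set 264514_AT gave 114.2 and 129.7 units, against 6.47 and 19.07 units in BAM8-Lig_Ox, a difference of 3.45 (SE 0.30, adjusted p 2.91e-06) whose size varied with the BAM8-Lig_Ox array used. At both probe sets BAM8-Lig_Ox was not called against wildtype, at -0.06 (95% interval -0.32 to 0.19, adjusted p 0.799) for 245171_AT and 0.48 (95% interval -0.15 to 1.11, adjusted p 0.403) for 264514_AT.

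Of the lower probe sets in this comparison, 252606_AT gave 8.76 and 7.59 units in BAM8-Cat_Ox, against 161.0 and 176.9 units in BAM8-Lig_Ox, a difference of -4.37 (SE 0.12, limma adjusted p 9.93e-14). Probe set 256017_AT gave 20.50 and 17.25 units in BAM8-Cat_Ox, against 55.36 and 96.16 units in BAM8-Lig_Ox, a difference of -1.96 (SE 0.30, adjusted p 0.0024) that lost its call without BAM8-Lig_Ox replicate 2 (adjusted p 0.057). It was also low in BAM8_Ox, at 30.68 and 14.99 units, in BAM8-N_Ox, at 26.08 and 18.80 units, and in BAM7-N_Ox, at 17.06 and 12.63 units. Against wildtype, at 53.60 and 49.08 units, BAM8-Cat_Ox differed by -1.45 (SE 0.30, adjusted p 0.0311). The count of 170 was 681 without BAM8-Cat_Ox replicate 1, 93 without BAM8-Cat_Ox replicate 2 and 83 without BAM8-Lig_Ox replicate 2. The balance turned without BAM8-Lig_Ox replicate 1, to 65 higher and 84 lower.

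Last, BAM8-Cat_Ox was set against the mean of the 13 other groups, a comparison added after the data were seen. It differed at 385 probe sets (1.69% of those tested), 239 of them higher (1.05%) and 146 lower (0.642%). After cyclic loess the split was 313 higher and 121 lower. Both BAM8-Cat_Ox arrays lay above all 26 other arrays at 111 probe sets and below all of them at 117. Of the 111, 79 were called against the mean of the other groups, and of the 117, 60 were. The same arrays picked these probe sets, so the direction was fixed in advance and these counts only describe the overlap. Other groups also had probe sets where both their arrays stood at one end, from 22 in bam8 to 355 in BAM8-N_Ox at the upper end and from 14 in bam7 to 258 in BAM7-N_Ox at the lower end. Probe set 252606_AT differed from the mean of the other groups by -4.49 on the log2 scale (SE 0.09, limma adjusted p 2.74e-16). For 245171_AT that difference was 3.79 (SE 0.09, limma adjusted p 2.9e-15). Both probe sets were picked by the same BAM8-Cat_Ox arrays against wildtype, which is 1 of the 13 groups. These p-values thus add no separate support. The count of 385 was 1042 without BAM8-Cat_Ox replicate 1 and 122 without BAM8-Cat_Ox replicate 2.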

How the data were processed

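Transcript levels were measured on 1-colour arrays with biotin-labelled cRNA. The authors deposited 1 intensity per probe set and array, linear and between 2.89 and 22277. RMA is the only tool named, per the submitters' processing notes and with no version; that its log2 output was turned back to linear values is inferred from their range. Here log2 was taken of the deposited values, and 1 control was dropped from the 22747 probe sets. Group means were estimated jointly over the 28 arrays (R 4.3.3, limma 3.58.1; 14 residual degrees of freedom, 17.7 after moderation). Tests were two-sided and moderated, with Benjamini-Hochberg adjustment within a comparison over 22746 probe sets, and calls needed an adjusted p under 0.05. Intervals are 95% intervals of that fit. The fit was also run on simulated data with independent errors, which checked neither the intervals nor the effect of single deviating arrays.

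Replicate numbers were not used as pairs: the labels do not say that a number marks a shared batch, and deviations of same-numbered BAM8-Cat_Ox arrays correlated with r of -0.0993 for wildtype, 0.185 for BAM8_Ox and 0.0419 for BAM8-Lig_Ox, within a range of -0.381 to 0.434 over 91 pairs of groups. The number of arrays limits precision: a log2 difference had a median SE of 0.139. Detection calls were not used here, so a low level may be background.

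Probe sets were to be named by size of change among called ones with separated arrays and a single gene. Without a gene table here the last condition was not applied, the 2 largest rises and 2 largest falls per comparison are given, and the pathway lists, organ markers and BAM7 and BAM8 levels were not analysed. Comparisons and lists were chosen with earlier results of these data known. The comparison with the mean of the other groups and those without BAM8-Cat_Ox and wildtype arrays were added after seeing the data. Plots used matplotlib 3.10.9 (Python 3.11.15). The closing section gives the alternatives tried.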

Additional observations from a re-analysis of the deposited data

How the results depend on the processing

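Counts of called probe sets moved with the settings more than the named differences did. Tried were cyclic loess, array weights, a replicate block, a robust fit with a variance trend, a fit of the compared groups alone, a filter on mean level that kept 15164 probe sets, removal of 1061 probe sets of the _s_at and _x_at kinds, and dropping single arrays. Fits without the BAM7-Cat_Ox group and without the 4 arrays of lowest 25th percentile were added after seeing the data.

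With only the groups compared, the counts were 6 for BAM8-Cat_Ox minus wildtype (135 with all arrays), 0 for minus BAM8_Ox (24), beside 1530 with a p under 0.05 without adjustment in the limma fit of all arrays, and 11 for minus BAM8-Lig_Ox (170). This fit leaves 2 residual degrees of freedom. With array weights they were 71 for minus wildtype and 104 for minus BAM8-Lig_Ox, and the cause was not tested. Leaving out 1 array gave 65 to 383 for minus wildtype, 1 to 240 for minus BAM8_Ox, 83 to 681 for minus BAM8-Lig_Ox and 122 to 1042 for minus the mean of the 13 other groups, which could not be fitted with only the groups compared. The replicate block gave 134, 20, 185 and 384 for these 4 comparisons, and the numbers are only names. Cyclic loess moved the split of minus the mean of the other groups to 313 higher and 121 lower, beside 239 and 146, and without the 4 arrays of lowest 25th percentile minus BAM8-Lig_Ox had 56 higher and 84 lower.

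No named difference changed sign in the alternatives run. Against wildtype, 245171_AT kept its call in 12 of 12 alternatives and 252606_AT, 264514_AT and 249780_AT in 13 of 13. Against BAM8_Ox, 252606_AT lost it in the fit of the 2 groups (adjusted p 0.191, limma), 251728_AT in 5 of 12 alternatives, 264958_AT in 3 of 13 and 251727_AT in 2 of 13. Against BAM8-Lig_Ox, 256017_AT lost it in 2 of 13 and 264514_AT in 1 of 13. Of 88 counts of the 96 and 39 probe sets in the comparisons without BAM8-Cat_Ox and wildtype arrays, 68 stayed within 1.5 times.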
